A study of Drosophila melanogaster with 6 samples.

Results

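Cytosolic ribosomal proteins are the protein parts of the ribosome, and their genes in Drosophila melanogaster were taken as all genes whose FlyBase symbol begins with RpL or RpS and a digit, together with RpLP0, RpLP1, RpLP2 and sta. The annotation of BDGP6.54 holds 92 such genes, and 87 of them were among the 16942 gene identifiers of the deposited counts. The other 5, RpS12, RpL19, RpL31, RpS10b and RpL27A, were not found under their present identifier and are not analysed here. Within families of sister genes, a gene was classed as a paralogue where its symbol ends in -like or where a sister had at least 2 times its level, in CPM per kb of exon averaged over the pools. CPM are counts scaled to the effective library size of each library. RpS10a was classed by name, because its sister RpS10b was not measured. This gave 76 canonical members, 44 of the large and 32 of the small subunit, and 11 paralogues: RpL7-like, RpL10Aa, RpL22-like, RpL24-like, RpL34a, RpL37-2, RpS5b, RpS10a, RpS19b, RpS28a and RpS28-like. A paralogue being scarcer than its sister over the pools is therefore part of the definition. RpL34a lay just inside the limit, with RpL34b at 2.09 times its level, and RpS15Ab just outside it, with RpS15Aa at 1.996 times its level. All 87 measured members passed the filter on low counts.

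Males of the Dahomey wild-type strain were studied after rival males had been present for 2 or 26 h. All groups had rivals, so no group without them can be set beside these values. The strain, age at isolation and earlier housing were shared: 100 larvae per vial, 10 males per vial after eclosion and single housing for 5 days from 1 day of age. Time with rivals came after these, so age at sampling and time with rivals cannot be told apart between 2 and 26 h. RNA came from pools of 40 body parts, abdomen or head plus thorax, and was sequenced as single reads of 50 nt. The 3 pools were abdomen at 2 h, referred to as abdomen, and head plus thorax after 2 h and after 26 h, referred to as early and late head-thorax. Each was divided into 2 technical libraries, called split library 1 and 2, that went on different lanes of 1 flow cell.

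Ribosomal proteins of the small subunit surround the site where the message is decoded, and those of the large subunit the site where peptide bonds form and the tunnel through which the new chain leaves. In flies, loss of 1 copy of many of these genes delays growth and shortens the bristles, the Minute phenotype. Several families have a second gene whose product can take the same place in the ribosome, and in Drosophila some of these second genes are known for expression in the germline of testis or ovary. The P stalk, made of RpLP0, RpLP1 and RpLP2, is the part of the large subunit that receives the elongation factors.

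Total counts ranged from 21070598 to 34217543 per library, and members held 2.49% to 2.78% of them. Transcripts of the mitochondrial genome took 7.46% to 8.04% of counts in abdomen, 17.3% to 17.9% in early head-thorax and 21.6% to 21.97% at 26 h. Several lists of markers followed the labels of the body parts. All 12 spermatid, 7 spermatocyte, 6 accessory gland and 4 Malpighian tubule markers measured were higher in abdomen. All 7 photoreceptor, 4 neuron and 5 flight muscle markers measured were lower there. By the 2-fold rule given below, 35.6% of all genes tested were higher and 21.7% lower. Other lists were mixed or lower in abdomen: 4 of 5 early germline markers were higher, but vas was slightly lower. Midgut sums were 6902 CPM in abdomen and 6240 CPM in early head-thorax, and fat body sums 7764 and 15726 CPM. Of 4 hemocyte markers 2 were lower in abdomen at 2-fold. With 1 pool per group, the p-values below measure only how far technical libraries of 1 pool lie apart, on 3 residual degrees of freedom, and they compare these pools, not the conditions. Of the members, 45 overlapped another gene whose reads they can hold. The other 42 overlapped no annotated gene and had counts identical to no other gene, and are referred to as members with reads of their own. Reads that fit sister genes of like sequence were not examined, so these members can still share reads with a sister.

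A set of 8 paralogues was high in abdomen and scarce in both head-thorax pools. In abdomen they stood at levels between 1.41 and 63.8 CPM, and in early head-thorax at 0.0313 to 0.249 CPM. These were RpL10Aa, RpL22-like, RpL37-2, RpS5b, RpS10a, RpS19b, RpS28a and RpS28-like. The 3 others, RpL7-like, RpL24-like and RpL34a, were present in all pools at 13.0 CPM or more. A gene was called at a Benjamini-Hochberg adjusted p under 0.05 in edgeR's quasi-likelihood test over 14694 genes and a difference of at least 2-fold. By this rule 8 of 11 paralogues were higher in abdomen, where 35.6% of all genes tested were called higher, and 1 of 11, RpL24-like, was lower, against 21.7% of all genes. Several of the 8, among them RpL10Aa, RpL37-2, RpS10a, RpS28a and RpS28-like, passed the filter on low counts through the abdomen libraries only. For such genes the direction of a call was set by the filter, so the number called higher is not separate evidence. The median log2 ratio of abdomen to head-thorax was 6.43 over the 11 paralogues and 0.06 over all genes tested. In pooled tissue, fewer cells of a type and less RNA per cell cannot be told apart.

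Among the large-subunit paralogues, RpL10Aa, a second gene for a protein of the L1 stalk that lies at 15037366 to 15038149 on 3R in BDGP6.54, had 1483 and 2291 counts in the abdomen libraries, 1 and 1 in early head-thorax and 7 and 8 in late head-thorax. Its level was 63.8 ± 1.59 CPM in abdomen and 0.0385 ± 0.0101 CPM in early head-thorax (SD, n = 2), so the abdomen libraries stood far above all others. With 2 counts behind the lower value, the ratio of pooled CPM was 1724, with an exact 95% counting interval from 477 to 14239. RpL22-like, a duplicate of RpL22 known from the fly testis and located at 23246610 to 23247893 on 2R, had 449 and 700 counts in abdomen, 6 and 4 in early head-thorax and 23 and 28 in late head-thorax. The abdomen libraries did not overlap with any head-thorax library, and the log2 ratio at 2 h was 6.68 ± 0.19 (SE; edgeR adjusted p = 6.9e-53). RpL37-2, a second gene for the large-subunit protein L37 on 2R, had 179 and 216 counts in abdomen, 1 and 1 in early head-thorax and 7 and 7 in late head-thorax, a ratio of 180.4 (49.6 to 1495) at 2 h.

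Among the small-subunit paralogues, RpS19b, whose sister RpS19a matures the small subunit, had 417 and 625 counts in abdomen, 5 and 1 in early head-thorax and 9 and 11 in late head-thorax. Its level in abdomen was 17.7 ± 0.0627 CPM (SD, n = 2), and its log2 ratio was 7.25 ± 0.21 (SE; edgeR adjusted p = 2.2e-51). Without split library 1 of early head-thorax that ratio was 8.53 and without split library 2 it was 6.77, a range wider than the SE. RpS5b, known in flies from work on the female germline, had 277 and 399 counts in abdomen, 13 and 2 in early head-thorax and 17 and 22 in late head-thorax. Its log2 ratio was 5.34 ± 0.21 (SE; edgeR adjusted p = 9.7e-42), but 6.97 without split library 1 of early head-thorax and 4.79 without split library 2. RpS10a had 146 and 255 counts in abdomen, 3 and 1 in early head-thorax and 8 and 9 in late head-thorax (log2 ratio 6.43 ± 0.31 SE, and 7.15 and 6.10 without split library 1 and 2 of early head-thorax). It lies inside tau, the neuronal microtubule-associated protein gene, on the opposite strand, and tau held 2078 counts in abdomen and 6841 in early head-thorax.

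RpS28 has 2 scarce relatives beside its canonical gene RpS28b. RpS28-like had 125 and 168 counts in abdomen, 2 and 0 in early head-thorax and 1 and 0 in late head-thorax, and its abdomen to head-thorax ratio was 134 (36.7 to 1110.3). RpS28a had 36 and 46 counts in abdomen, 1 and 2 in early head-thorax and 0 and 2 in late head-thorax, with a ratio of 24.97 (8.25 to 124). Their head-thorax counts were at or under the floor of 3 counts per pool, which corresponds to 0.0557 CPM at 2 h and 0.0503 CPM at 26 h.

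**Figure D1:**
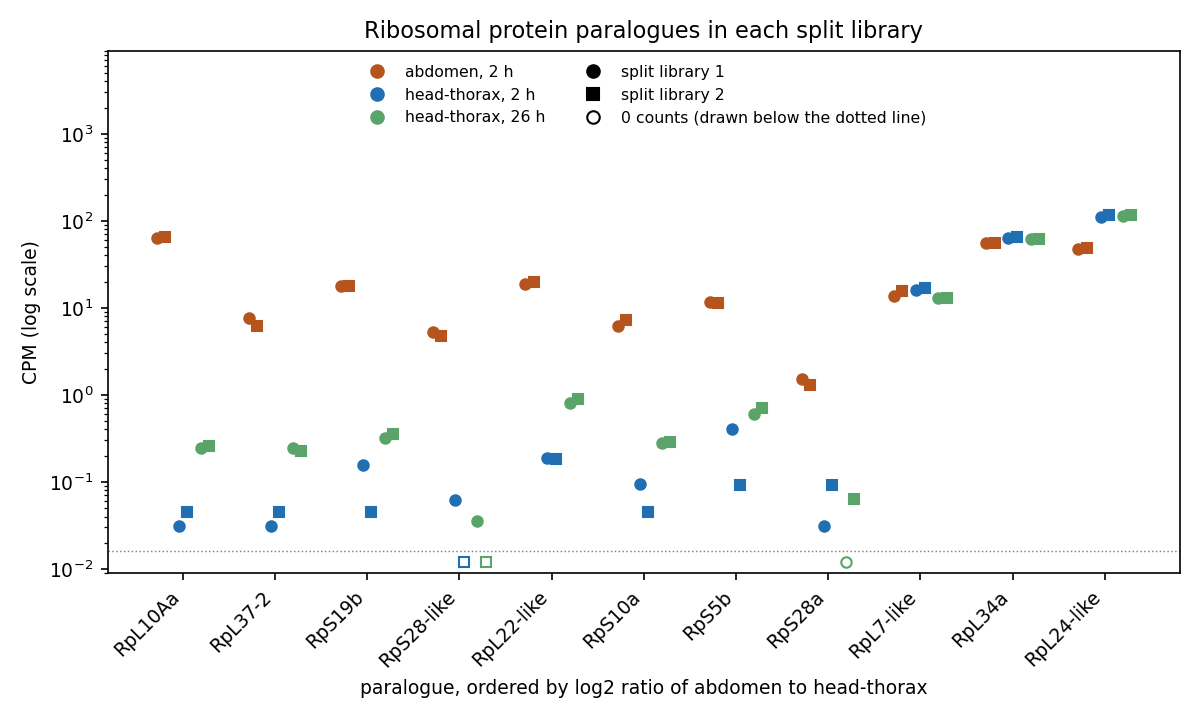
CPM of the 11 paralogues on a log scale in each library, with circles for split library 1, squares for split library 2 and open symbols for 0 counts. The 8 paralogues on the left lie at 1.30 CPM or more in abdomen and below 1 CPM in both head-thorax pools, whereas RpL7-like, RpL34a and RpL24-like lie above 10 CPM in every library.

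The shares of family counts held by the paralogues do not depend on the scaling between libraries, and they showed the same separation of pools. RpL10Aa held 15.1% of the counts of the pair RpL10Aa and RpL10Ab in abdomen (exact Clopper-Pearson 95% interval 14.6% to 15.5%), 0.00852% in early head-thorax (0.00103% to 0.0308%) and 0.0598% at 26 h (0.0334% to 0.0985%). RpS19b held 8.27% of its pair in abdomen (7.80% to 8.77%), against 0.0447% (0.0164% to 0.0972%) and 0.173% (0.106% to 0.267%) in the head-thorax pools at 2 and 26 h. RpL22-like held 5.96% (5.63% to 6.30%), against 0.0434% (0.0208% to 0.0798%) and 0.197% (0.147% to 0.259%). RpL22 shares its span with lncRNA:CR42491, which held 8878 counts in abdomen, so its reads and those of that transcript cannot be told apart. RpS5b held 3.93% (3.65% to 4.23%), against 0.0875% (0.0490% to 0.144%) and 0.231% (0.164% to 0.316%). The sister therefore remained the main gene of every pair in abdomen. RpL37-2 held 2.50% in abdomen, RpS28-like 1.72% and RpS28a 0.483%, each under 0.1% in both head-thorax pools. Summed over the 8 paralogues, which are chosen here by their calls, the level was 132 CPM in abdomen beside 23988 CPM of canonical members.

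None of the sisters, all canonical, passed 2-fold in either comparison. RpL10Ab was at 355 and 364 CPM in abdomen, 439 and 432 in early head-thorax and 419 and 422 in late head-thorax, a log2 ratio of −0.28 ± 0.03 between body parts where the ratio of RpL10Aa was 1724-fold. RpS5a was at 280 CPM in both abdomen libraries, 321 and 314 in early head-thorax and 281 and 283 in late head-thorax, with a log2 ratio of −0.18 ± 0.03. RpL37-1 and RpS28b had log2 ratios of −0.32 ± 0.03 and −0.17 ± 0.03, and these 4 lay within 0.08 of the canonical median. RpL22 at −0.48 ± 0.03 and RpL24 at −0.43 ± 0.03 were further below it, and RpS19a, at −0.35 ± 0.03, had the lowest canonical ratio of late to early head-thorax (−0.36 ± 0.03). By position, RpL22, RpL37-1, RpS5a, RpS19a and RpS28b are on X, while none of the 11 paralogues is. In BDGP6.54 the other paralogues lie on 3R (RpS5b at 14900432 to 14901563, RpS19b at 23932729 to 23933530, RpS10a at 27652760 to 27653363, RpS28a at 30022345 to 30022648, with RpL24-like and RpL34a), on 2R (RpL37-2 at 23100057 to 23100478) and on 2L (RpS28-like at 9436804 to 9437227, and RpL7-like).

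**Figure D2:**
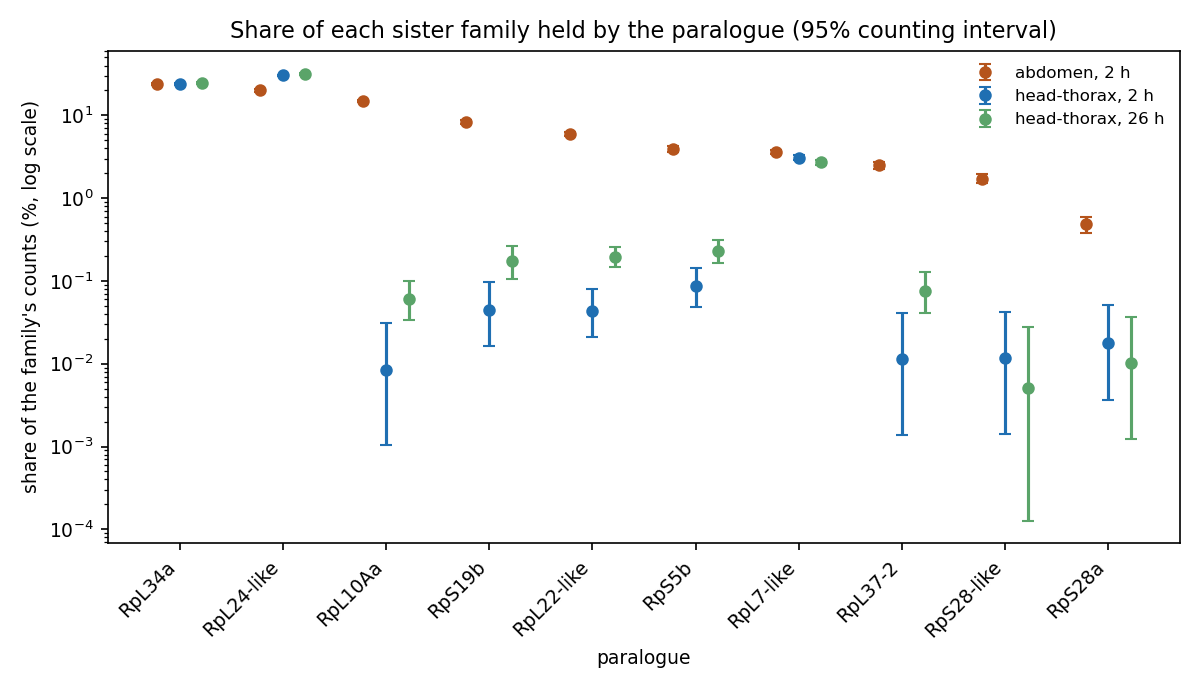
Percentage of the counts of each sister family held by the paralogue in each pool, on a log scale, with bars for the exact 95% counting interval. Shares in abdomen run from 0.483% for RpS28a to 24.2% for RpL34a, and the head-thorax shares of 7 paralogues lie below 1%.

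The 3 paralogues present in all pools behaved differently from one another. RpL24-like is the counterpart of yeast Rlp24, an assembly factor of the large subunit whose place is later taken by the ribosomal protein itself. It had 1128 and 1739 counts in abdomen, 3578 and 2557 in early head-thorax and 3240 and 3649 in late head-thorax. Both abdomen libraries, at 47.7 and 49.3 CPM, were below all head-thorax libraries, at 112 to 117 CPM, and the log2 ratio was −1.23 ± 0.04 (SE; edgeR adjusted p = 1.0e-50). Its share of counts with RpL24 was 20.05% in abdomen (19.4% to 20.7%), 30.3% in early head-thorax (29.7% to 31.0%) and 31.7% at 26 h (31.1% to 32.4%). It overlaps Dtd by 23 bases, and Dtd held 34 to 143 counts per pool against 2867 to 6889.

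RpL34a was the paralogue whose level followed its sister most closely. It had 1303 and 1950 counts in abdomen, 2008 and 1425 in early head-thorax and 1758 and 1940 in late head-thorax. Its share with RpL34b was 24.2% in abdomen, 24.05% in early head-thorax and 24.4% at 26 h, with overlapping counting intervals. RpL7-like, the counterpart of the yeast assembly factor Rlp7, had 327 and 557 counts in abdomen, 515 and 366 in early head-thorax and 369 and 409 in late head-thorax. The gene CG34164 had the same counts in every pool, 884, 881 and 778, so the reads of these genes cannot be told apart. The abdomen to head-thorax log2 ratio of RpL7-like was −0.13 ± 0.07 (SE; edgeR adjusted p = 0.092), and it turned to 0.01 under DESeq2 size factors and to 0.08 under raw totals.

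Canonical members were abundant in all pools. Per kb of exon their median was 320 CPM in abdomen, 386 in early head-thorax and 369 in late head-thorax. RpL41, which encodes a peptide from a reading frame of 75 bases, was the most abundant per kb over the pools, at 1316 CPM per kb in abdomen, 956 in early head-thorax and 1301 in late head-thorax. RpS27A, made as a fusion with ubiquitin, followed at 918, 997 and 1049.5 CPM per kb, and RpL21 at 674, 850.3 and 834. RpL41 lies within the sodium channel gene NaCP60E on the opposite strand, and RpS27A shares its span with Ip259, so both values can hold reads of a neighbour. The least abundant were RpL28 at 89.2, 109 and 123 CPM per kb, RpS21 at 114.96, 125 and 105, and RpS19a at 155, 198 and 154. RpL28 overlaps nSMase by 15 bases. Large-subunit genes held 58.2% to 59.3% of member counts and small-subunit genes 40.0% to 41.2% in all 6 libraries. Summed canonical CPM were 23988 ± 545 in abdomen, 27955 ± 246 in early head-thorax and 27371 ± 206 in late head-thorax (SD, n = 2). As a percentage of raw totals the canonical sum was 2.65% and 2.75% in the abdomen libraries, 2.75% and 2.69% in early head-thorax and 2.47% and 2.52% at 26 h, so the lower abdomen sum depends on the scaling.

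Between body parts, none of the 76 canonical members passed 2-fold in either direction. Without the fold limit, 5 were higher in abdomen and 69 lower, where 46.8% and 43.6% of all genes tested were called higher and lower. The canonical median log2 ratio was −0.25, with quartiles at −0.33 and −0.14 and an SD of 0.18, and for all genes tested the quartiles were −0.85 and 2.99. Among 1431 other genes of the same CPM range, 15.0% were called higher and 38.0% lower at 2-fold, and their median was −0.66. Without the fold limit 26.3% of these genes were higher and 70.4% lower. How many canonical members lie on each side of 0 depended on the scaling, since the all-gene median moved by 0.14 with DESeq2 size factors and by 0.21 with raw totals. The counts higher and lower were 10 and 44 with DESeq2 size factors and 21 and 34 with raw totals, and the canonical median stayed below 0, at −0.10 and −0.04. Named members are therefore given relative to the canonical median as well.

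The P stalk stood at the upper end of the canonical members. RpLP2 was at 431 and 449 CPM in the abdomen libraries, 330 and 326 in early head-thorax and 442 and 441 in late head-thorax. Head-thorax at 2 h was below both other pools, whose libraries overlapped, and the abdomen to head-thorax log2 ratio at 2 h was 0.42 ± 0.03 (SE; edgeR adjusted p = 1.8e-27), 0.67 above the canonical median. RpLP1 was at 361 and 380 CPM, 328 and 328 CPM and 324 and 338 CPM in the same order of pools, with a log2 ratio of 0.18 ± 0.03, 0.43 above the canonical median. RpLP0, the stalk base that binds ribosomal RNA, was at 497 and 530 CPM, 499 and 490 CPM and 531 and 544 CPM, with a log2 ratio of 0.06 ± 0.03, 0.30 above the canonical median. The other members at this end were RpL41, with a log2 ratio of 0.46 ± 0.03 (0.71 above the canonical median), and RpL39, a small protein of the exit tunnel, at 0.12 ± 0.03 (0.36 above it). RpL41 was at 427 and 416 CPM in abdomen, 306 and 306 in early head-thorax and 422 and 411 in late head-thorax, so for this gene too early head-thorax was the low pool.

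At the lower end stood a pair of neighbouring X-linked genes. RpS14a and RpS14b encode the small-subunit protein S14, which faces the messenger in the cleft of the subunit. RpS14a was at 273 and 282 CPM in abdomen, 416 and 404 in early head-thorax and 354 and 365 in late head-thorax, with a body-part log2 ratio of −0.56 ± 0.03 (SE; edgeR adjusted p = 1.8e-35). RpS14b was at 185 and 196, 276 and 266, and 235 and 242 CPM, with a ratio of −0.51 ± 0.03. RpS14a held 59.2%, 60.2% and 60.1% of their summed counts in the 3 pools. Both encode the same protein, and how reads that fit both genes were assigned is not known. Their ratios may therefore not be separate measurements. RpL22, the sister of RpL22-like, was next at −0.48 ± 0.03 (−0.23 relative to the canonical median), and RpL35A was also near this end at −0.45 ± 0.03. RpS6, the small-subunit protein that S6 kinase phosphorylates, was also at −0.45, but its reads cannot be told from those of the copy CR33222, which had 22793 counts in abdomen against 22724 for RpS6.

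Members that carry other domains had ratios on both sides of the canonical median. The ubiquitin fusions RpL40 and RpS27A had log2 ratios of −0.25 ± 0.03 and −0.12 ± 0.03, with −0.00 and 0.13 relative to the canonical median. RpS30, fused to a ubiquitin-like domain, was at −0.45 ± 0.03 (−0.20 relative to it). The ratio of sta, the fly homologue of the laminin receptor precursor, was −0.11 ± 0.03 (0.13 above it). RpL40 lay inside the canonical quartiles of −0.33 and −0.14, RpS27A and sta above them and RpS30 below.

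**Figure D3:**
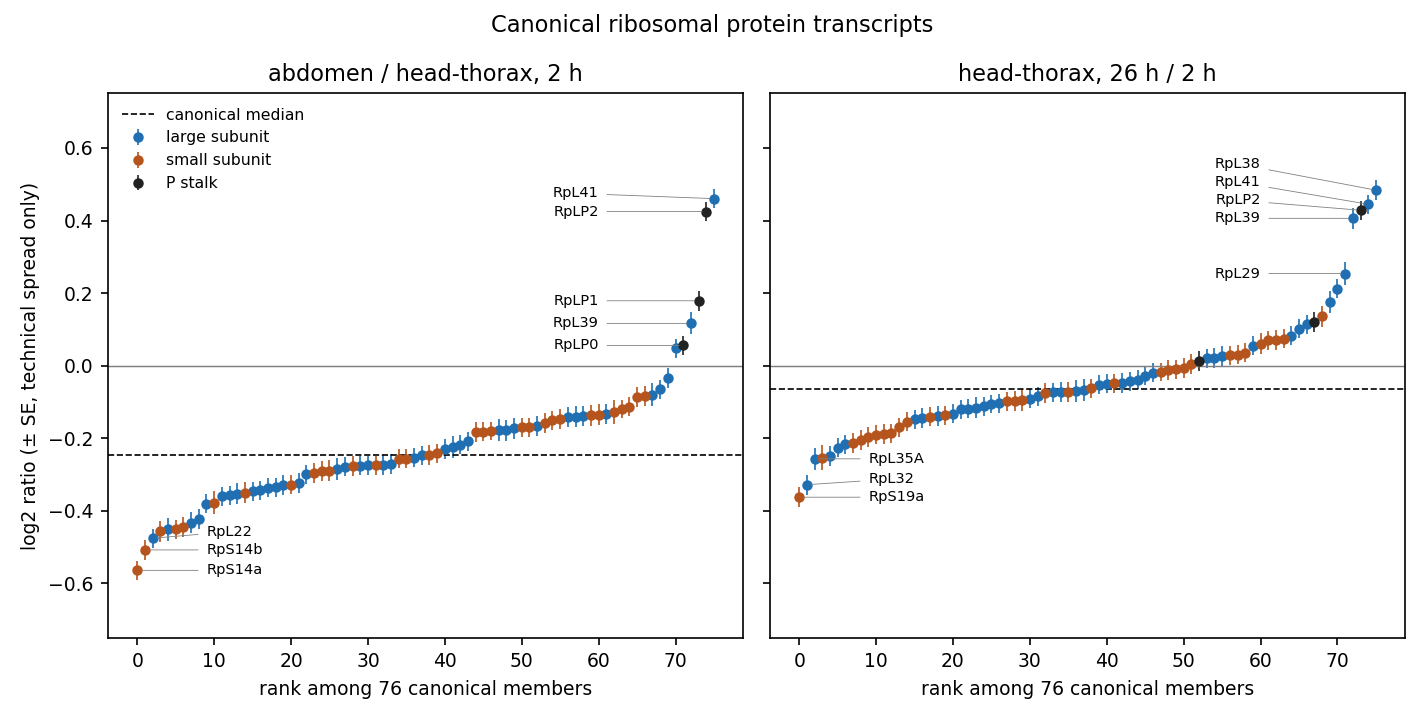
Log2 ratios of the 76 canonical members, ranked, for abdomen against early head-thorax (left) and late against early head-thorax (right), with bars for the SE of the fit, which covers technical spread only. The dashed lines mark the canonical medians of −0.25 and −0.06, and the points reach from −0.56 to 0.46 on the left and from −0.36 to 0.48 on the right. Both panels divide by the same head-thorax pool at 2 h.

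In head-thorax, 26 h against 2 h of rivals is the difference with time, and it uses the same 2 h pool as the comparison of body parts, so the values of both are given side by side and not as separate evidence. Again 0 of 76 canonical members passed 2-fold in either direction, against 6.21% of all genes called higher and 1.5% called lower. DESeq2's Wald test also called 0 at 2-fold in both comparisons, and 57 of 76 had an unadjusted p under 0.05 in edgeR's test with time. Without the fold limit 15 were higher and 37 lower, where 19.7% and 21.3% of all genes were. Among the 1431 other genes of the same CPM range, 39.2% were higher and 39.8% lower without the fold limit. For the canonical members, raw totals gave 7 and 58, and DESeq2 size factors 22 and 27. The canonical median was −0.06 and that of all genes 0.00.

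The higher end at 26 h was made of 5 large-subunit genes. They were chosen as the highest ratios of this comparison, so higher values in both 26 h libraries are not separate evidence. RpL38, which in the mouse is known for its part in the translation of Hox messages, was at 251 and 249 CPM at 2 h and at 356 and 344 CPM at 26 h. Its log2 ratio was 0.48 ± 0.03 (SE; edgeR adjusted p = 1.0e-28), 0.55 above the canonical median. In abdomen at 2 h it was at 253 and 237 CPM, with a body-part log2 ratio of −0.03. RpL41 had a log2 ratio of 0.44 ± 0.03 with time, RpLP2 of 0.43 ± 0.03, RpL39 of 0.41 ± 0.03 and RpL29 of 0.25 ± 0.03. RpL39 was at 147 and 152 CPM at 2 h and 201 and 193 CPM at 26 h, and it overlaps RpL12 by 8 bases. RpL41, RpLP2 and RpL39 were thus near the top of both comparisons, in which the 2 h head-thorax pool is the shared divisor. RpLP0 was at 0.12 ± 0.03 and RpLP1 at 0.01 ± 0.03, so the stalk genes did not share 1 value with time.

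The lower end at 26 h was led by RpS19a, at 251 and 246 CPM at 2 h and 192 and 195 CPM at 26 h, with a log2 ratio of −0.36 ± 0.03 (SE; edgeR adjusted p = 1.8e-20). RpL32, often used under its name rp49 as a reference gene in fly expression work, was at 292 and 297 CPM at 2 h, 230 and 239 CPM at 26 h and 228 and 232 CPM in abdomen. Its log2 ratio was −0.33 ± 0.03 with time and −0.36 ± 0.03 between body parts. RpL35A was at −0.26 ± 0.03, RpS21 at −0.25 ± 0.03 and RpL17 at −0.25 ± 0.03. These 5 were chosen as the lowest ratios of this comparison, so their lower values in both 26 h libraries are not separate evidence. The ratios of RpL40, RpS27A, RpS30 and sta were −0.10, 0.07, −0.05 and −0.15, and those relative to the canonical median −0.04, 0.14, 0.02 and −0.09.

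Of the paralogues, 6 of 11 were called higher at 26 h and 0 lower, against 6.21% and 1.5% of all genes: RpL10Aa, RpL37-2, RpL22-like, RpS10a, RpS19b and RpS5b. All 6 rested on few counts, between 2 and 15 per pool at 2 h and between 14 and 51 in late head-thorax. RpL22-like had the most, and its log2 ratio was 2.18 ± 0.43 (SE; edgeR adjusted p = 1.4e-05), from 0.185 ± 0.00375 to 0.853 ± 0.0590 CPM (SD, n = 2). For RpL10Aa the ratio of pooled CPM was 6.77, with an exact counting interval from 1.58 to 61.1, and for RpL37-2 it was 6.32 (1.45 to 57.3). The intervals were 1.25 to 15.7 for RpS10a (ratio 3.84), 1.17 to 9.16 for RpS19b (3.01) and 1.27 to 4.59 for RpS5b (2.35). RpS28a and RpS28-like were at or under the floor at both times and have no fold.

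The number of these calls depended on single libraries and on the test. It fell from 6 to 3 with DESeq2's Wald test, to 1 with the fold tested inside the model (RpL22-like) and to 3 without any 1 of the 4 head-thorax libraries. RpL22-like passed in each of these fits, and RpS10a in none of them. RpL7-like was at −0.33 ± 0.08 (SE; edgeR adjusted p = 0.00019), short of 2-fold, while RpL34a (−0.04) and RpL24-like (0.02) had adjusted p of 0.43 and 0.70.

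Markers of several tissues moved in the same comparison as these paralogues. Over all genes, 6.21% were called higher and 1.5% lower there, and 19.7% and 21.3% without the fold limit. Of 12 testis spermatid markers 11 were called higher at 26 h, and their summed level went from 3.88 and 5.29 CPM in the 2 h libraries to 15.5 and 18.3 CPM at 26 h, with none at 0 counts. In abdomen the same sum was 3167 and 3221 CPM. Of 7 spermatocyte markers 2 were called higher, nht and sa, with sums of 7.62 and 9.14 CPM at 2 h and 11.1 and 11.9 CPM at 26 h, and nht was at 0 at 2 h. Of 5 early germline markers 0 were called, with or without the fold limit, with sums of 140.0 and 140.1 CPM at 2 h and 145 and 146 CPM at 26 h, and zpg was at 0 at 2 h. That sum is mostly vas, whose levels were 136 CPM in early head-thorax, 141 in late head-thorax and 127 in abdomen, so it does not describe the other 4 genes. Accessory gland markers, of which 0 of 6 were called at 2-fold and 1 of 6 without the fold limit, summed to 3.70 and 3.91 CPM at 2 h and to 4.95 and 7.58 CPM at 26 h, and Acp29AB was at 0 at 2 h. Of 7 midgut markers 1 was called higher, the trypsin gene thetaTry, with 7 and 7 counts at 2 h and 198 and 197 at 26 h (2515 and 3860 in abdomen), while the midgut sum was 6154 and 6326 CPM at 2 h and 5690 and 5869 CPM at 26 h. Of 4 Malpighian tubule markers 1 was called higher, NaPi-T, at a log2 ratio of 1.15, with sums of 20.8 and 23.4 CPM at 2 h and 25.5 and 26.9 CPM at 26 h. Of 5 fat body markers 1 was called lower, Lsp2 (−1.37), and of 4 hemocyte markers 1, NimC1 (−1.32). Fat body sums were 15707 and 15745 CPM at 2 h and 13038 and 13052 CPM at 26 h, and hemocyte sums 209 and 211 CPM at 2 h and 142 and 144 CPM at 26 h, with no marker of these 4 lists at 0. The part of any of these tissues in the paralogue values was not tested.

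By chromosome arm, the canonical members differed most between X and 2R. In the comparison of body parts their median was −0.34 over 14 genes on X, −0.24 over 16 on 2L, −0.11 over 16 on 2R, −0.28 over 13 on 3L and −0.27 over 16 on 3R. Other genes of the same CPM range had medians of −0.82 on X and −0.55 on 2R, so the order of these arms was the same there. At 26 h against 2 h, 10 of 16 members on 2R were above 0, against 5 of 14 on X and 2 of 16 on 3R. RpL38, RpL41, RpLP2, RpL39, RpL29 and RpL11, the 6 highest ratios, are all on 2R, where the median of all 16 members was 0.03 beside 0.01 for other genes of that CPM range. These are descriptions of single pools, and no test of arms was made.

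**Figure D4:**
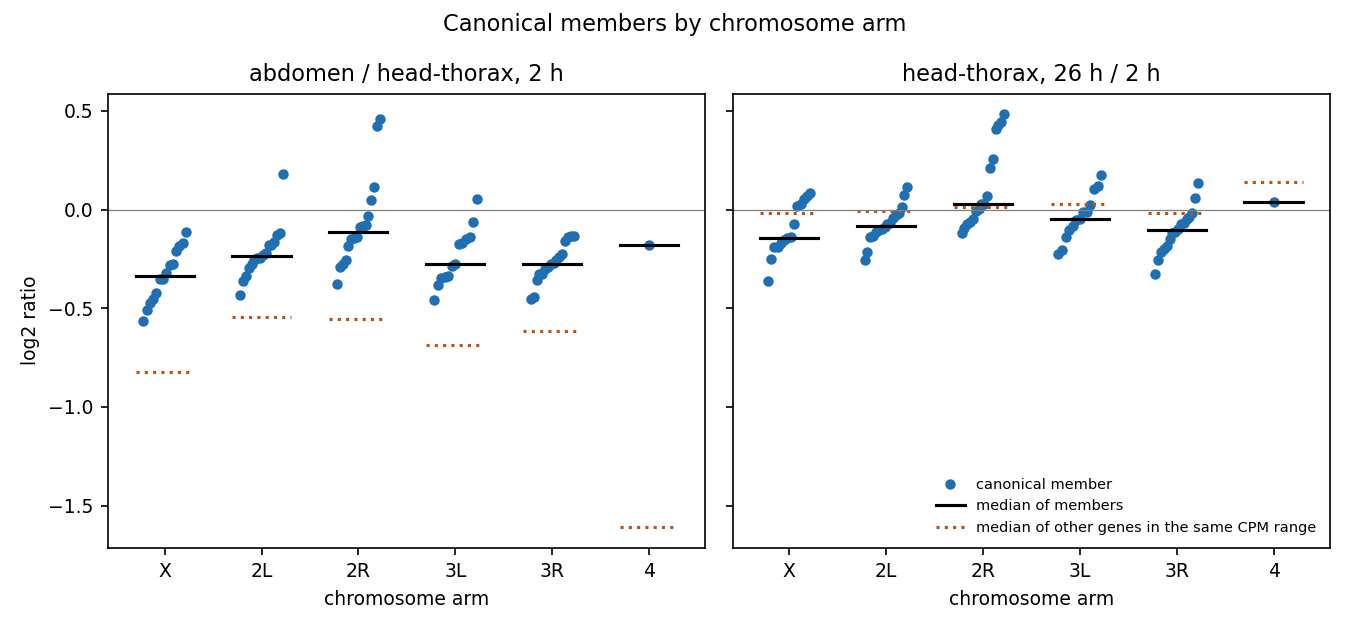
Log2 ratios of canonical members by chromosome arm for both comparisons, with the member median as a solid line and the median of other genes in the same CPM range as a dotted line. On 2R, 6 members lie above 0.2 in late head-thorax against 2 h, while no member on another arm does.

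Split libraries of 1 pool showed small but measurable differences in these abundant transcripts. They also went on different lanes, so the making of the libraries and the lane cannot be told apart. In abdomen 30 of 87 members differed between split libraries by a two-sided exact binomial test with Benjamini-Hochberg adjustment over all genes, where 2.19% of 14765 genes did and 11.2% of 1352 other genes in the count range of canonical members. All 30 were canonical. RpS2, a small-subunit protein at the messenger entry channel, had 8840 and 14436 counts in split libraries 1 and 2, which is 1.1-fold higher in the second relative to total counts (adjusted p = 4.2e-10). RpL34b had 3866 and 6330 counts, also 1.1-fold, and RpL35 5738 and 9305, 1.09-fold.

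The abdomen differences pointed almost all the same way. Of the 30 members 29 were higher in split library 2, among them RpL34b, RpS2, RpL35, RpS7, RpS30, RpL7A, RpLP0, RpL12, RpL3, RpL6, sta, RpS15, RpS13, RpL23, RpL18, RpS3, RpS18, RpL4, RpS9, RpLP1, RpS25, RpL26, RpS4, RpL8, RpL40, RpL23A and RpLP2. The folds of the 29 ran from 1.05 to 1.1. The exception was RpL38, with 5997 and 8370 counts, 1.06-fold higher in split library 1. Over all 87 members 76 were higher in split library 2, with a median fold, taken without direction, of 1.05. Of the 1352 other genes in the count range of canonical members, 67.1% were higher there, and 119 of the 152 that differed. The deviation from the expected split, as variance over counting variance, averaged 9.09 over members, 4.30 over these 1352 genes and 2.42 over all genes. With TMM library sizes 22 members differed, and 75 of 87 were higher in split library 2.

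Head-thorax libraries differed less. At 2 h 2 of 81 members tested differed, against 0.785% of 12232 genes and 1.86% of 1343 other genes of that count range. RpS7 had 15155 and 9881 counts (1.06-fold higher in split library 1, adjusted p = 0.00057) and RpL23A 17174 and 11377 (1.05-fold). At this time 73 of 81 members were higher in split library 1, or 59 of 81 with TMM library sizes, and of other genes in that count range 38.4% were higher in split library 2. At 26 h 0 of 85 differed, against 0.529% of 12865 genes and 1.09% of 1565 other genes, although 31 of 85 had an unadjusted p under 0.05 in the exact test. Here 73 of 85 were higher in split library 2, or 61 of 85 with TMM library sizes, where 64.0% of other genes in that count range were. These median folds between split libraries of 1.02 to 1.05 are as large as some ratios between pools that passed without the fold limit, and smaller than the ratios of RpL41, RpLP2, RpL38 and RpS14a.

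**Figure D5:**
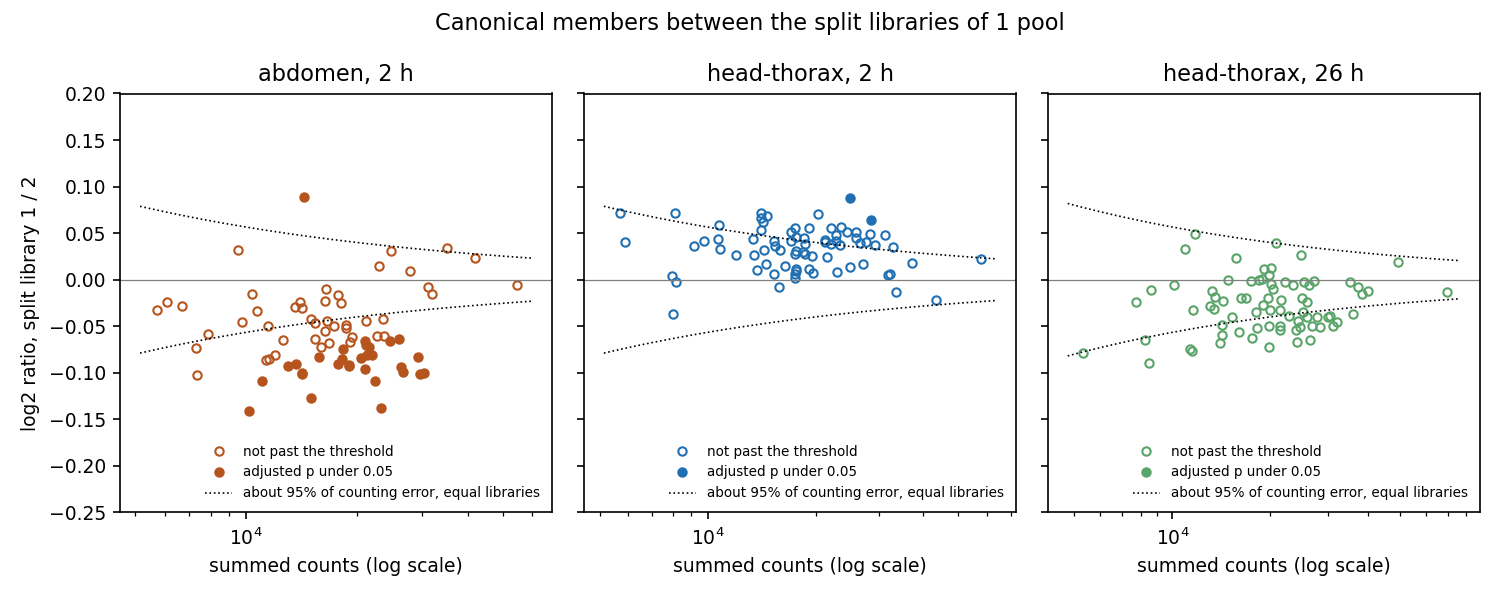
Log2 ratio of split library 1 to 2 of each canonical member against its summed count, 1 panel per pool, with filled points for adjusted p under 0.05 in the exact binomial test and dotted lines for about 95% of counting error. In abdomen 30 points are filled and 69 of 76 lie below 0, in early head-thorax 71 lie above 0 and at 26 h 65 lie below 0.

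Other parts of the translation machinery put these values in context. Of 71 mitochondrial ribosomal proteins, which serve the ribosome inside mitochondria, 28 were lower in abdomen and 0 higher (median log2 ratio −0.83). Over all genes 21.7% were lower and 35.6% higher. Of the 1431 abundant genes 38.0% were lower, but these span 97.1 to 1056 CPM and most of this list lay below that. Among the 28 were mRpS9 at −1.94, mRpS7 at −1.74, mRpS30 at −1.56 and mRpL28 at −1.23. At 26 h 0 of 71 were called (median −0.02), where 6.21% of all genes were higher and 1.5% lower. Without the fold limit 10 were higher and 8 lower, against 19.7% and 21.3% of all genes. Ribosome biogenesis genes gave 0 calls at 2-fold in either comparison over 32 genes, with medians of −0.37 and −0.11. Without the fold limit 5 were higher and 22 lower in abdomen, against 46.8% and 43.6% of all genes. At 26 h 1 was higher and 9 lower, against 19.7% and 21.3% of all genes. Non1 and Nop60B, which with mod and Tif-IA have the highest CPM of the list, were at −0.21 and −0.67 between body parts, and mod and Tif-IA at −0.01 and 0.13.

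Among initiation factors, single genes had large ratios in abdomen, but the share called was below that of all genes. Of 44, 10 were higher in abdomen, where 35.6% of all genes were, and 1, eIF4EHP (−1.04), was lower, where 21.7% were, at a median of −0.01. The cap-binding relatives eIF4E4, eIF4E7, eIF4E5 and eIF4E3 had log2 ratios of 9.28, 8.20, 8.12 and 7.61, and eIF4H2, eIF3d2, eIF3g2 and eIF3f2 of 8.55, 8.05, 7.38 and 6.61. eIF4G2, a scaffold of the initiation complex needed in fly spermatogenesis, was at 3.16 and eIF2A at 1.1. eIF4A, eIF4G1 and eIF1A, abundant factors of general use, were at −0.34, −0.16 and −0.14. At 26 h 2 of 44 were called higher, eIF4E3 (5 counts at 2 h in all, 23 in late head-thorax) and eIF4E5 (log2 ratio 1.2). Over all genes 6.21% were called higher in that comparison.

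Among 10 elongation factors and ribosome-associated proteins 1 was lower in abdomen and 0 higher, where 21.7% and 35.6% of all genes were. The gene called lower was eEF1alpha2, an isoform of the factor that brings aminoacyl-tRNA, at 16.9 CPM in abdomen and 390.5 CPM in early head-thorax (log2 ratio −4.52 ± 0.04 SE). eEF2, the translocation factor, was at −0.18, the ribosomal scaffold Rack1 at −0.27, Tctp at −0.33 and the poly(A)-binding protein pAbp at 0.35. At 26 h 0 of 10 were called at 2-fold, where 6.21% of all genes were higher and 1.5% lower. Without the fold limit 3 were higher and 4 lower, against 19.7% and 21.3% of all genes.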

How the data were processed

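The counts deposited by the authors are whole reads by FlyBase gene for 6 libraries, 2 split libraries of each of 3 pools. Which aligner, counter, build and gene set made them is not given in the sources used here. Identifiers were matched to Ensembl release 115 (BDGP6.54): 16735 matched and 207 did not. Members and gene lists were chosen with earlier results of these data known.

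Counts were fitted with edgeR 4.0.16 in R 4.3.3 (TMM, filterByExpr, quasi-likelihood test, all 6 libraries in 1 fit, Benjamini-Hochberg over 14694 genes), with DESeq2 1.42.0 as an alternative. CPM used TMM effective library sizes. Levels are the mean ± SD of 2 split libraries, a technical spread of about 1.63% between libraries beyond counting. Split libraries were compared by an exact binomial test (scipy 1.17.1) over genes with at least 10 summed counts, the expected share coming from total counts. Intervals and the floor of 3 counts cover counting error only. The edgeR fit was tried on simulated counts. The genes changed in them were less scarce than the scarce paralogues in early head-thorax, so such low counts were not covered. Named were all paralogues and sisters, the 5 highest and 5 lowest canonical ratios per comparison, the 3 most and 3 least abundant per kb, the stalk and fusion genes and members that differed between split libraries, and of other lists the 4 most abundant genes or those called, except that some named results are not reported here. RpS6, RpL11 and the initiation factors called in abdomen were chosen after their values were seen.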

Additional observations from a re-analysis of the deposited data

How the results depend on the processing

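Limits: 1 pool stood for each group, strand was not known to be used in counting, and the paralogues had few counts in head-thorax. In abdomen against early head-thorax, 8 paralogues were called higher in every fit of all members, and 6 higher and 0 lower among members with reads of their own, where RpS10a, RpS28-like and RpL24-like are left out because they overlap another gene.

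For canonical members between body parts, the numbers higher and lower without the fold limit were 10 and 44 with DESeq2 size factors, 21 and 34 with raw totals, 8 and 42 with DESeq2's Wald test, and 3 and 31 among members with reads of their own. The canonical median was −0.10 with DESeq2 size factors, −0.038 with raw totals, −0.20 with totals that left out mitochondrial transcripts and −0.10 with the Wald test. The ratio of RpL7-like changed sign, to 0.014, 0.079 and 0.00472, with DESeq2 size factors, raw totals and the Wald test.

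For late against early head-thorax, the canonical median was −0.023 with DESeq2 size factors, −0.16 with raw totals, −0.022 with the Wald test and −0.091 over the members that overlap no other gene. The numbers without the fold limit were 7 higher and 58 lower with raw totals, 19 lower with the Wald test, and 5 higher and 22 lower with reads of their own. Over all genes, 4692 were lower with raw totals and 1571 with the Wald test, which gave 135 lower at 2-fold. With the fold tested inside the model 317 genes were higher and 88 lower. Paralogues called higher numbered 3 with the Wald test and 1 with the fold inside the model. The ratio of RpL34a changed sign to 0.00167 with DESeq2 size factors and 0.000689 with the Wald test, and that of RpL24-like to −0.079 with raw totals and −0.00315 without mitochondrial transcripts. The cause of these changes was not tested.

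Summed canonical CPM in abdomen were 27011 with raw totals, 24625 without mitochondrial transcripts and 25378 with DESeq2 size factors. In early head-thorax they were 27241 with raw totals and 26782 with DESeq2 size factors, and in late head-thorax 24947, 26818 and 27004 with these 3 scalings in the order given for abdomen. Between split libraries, 1 member differed in early head-thorax with TMM library sizes and 1 in late head-thorax with a minimum of 50 counts.

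Leaving out 1 library at a time, the canonical median between body parts ran from −0.27 to −0.17 and the paralogue median from 6.10 to 6.97. For late against early head-thorax, 3 to 6 paralogues were called higher and their median ran from 0.68 to 2.23. The ratio of RpL24-like ran from −0.014 to 0.044. That of RpS28a, which rests on 2 and 3 counts and has no interpretable fold, ran from −3.77 to 0.18, with 0.088 without library 2 of early head-thorax, and that of RpS28-like, on 1 and 2 counts, from −3.26 to 2.23. Taken per library, shares ran from 23.6% to 25.2% for RpL34a and from 2.26% to 2.88% for RpL37-2 in abdomen, from 0.0290% to 0.127% for RpS5b, from 29.7% to 31.3% for RpL24-like and from 0% to 0.0195% for RpS28-like in early head-thorax, and from 0% to 0.0193% for RpS28a and from 0% to 0.0106% for RpS28-like in late head-thorax.

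Deviations of same-numbered split libraries correlated at 0.126 between early and late head-thorax over 10917 genes. Between abdomen and early or late head-thorax the correlations were 0.00633 and 0.00807. The main fit took no account of the library number. With the replicate block, paralogue calls were 8 higher and 1 lower between body parts and 6 higher and 0 lower in late head-thorax, and canonical members numbered 4 higher and 69 lower, and 15 higher and 36 lower, without the fold limit.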
